A study of Caenorhabditis elegans with 4 samples.

Results

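Messenger RNA of 9 genes of RNA degradation was followed in *C. elegans* animals fed on RNAi bacteria against *xrn-2*: the 5′-to-3′ exonuclease genes *xrn-1* and *xrn-2*, *paxt-1*, whose protein binds and stabilizes XRN2, and the exosome genes *exos-2*, *exos-3*, *exos-4.1*, *crn-5*, *exos-9* and *dis-3*. They were picked by WormBase symbol, not by their values, and are 9 of the 20380 genes in the deposited count table. The question was whether other decay enzymes change when *xrn-2* is targeted. Wild-type N2 animals, which carry no mutant allele, were fed from the L1 to the L4 larval stage at 20°C either on the *xrn-2* RNAi bacteria or, as mock, on bacteria with the empty L4440 vector. The RNAi animals grow slowly and were collected after a longer time on the food. Poly(A) RNA of whole animals was sequenced from 2 libraries of each condition, replicates 1 and 2.

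Eukaryotic RNA is degraded from both ends. XRN1 works mainly in the cytoplasm and removes decapped mRNA, whereas XRN2 works mainly in the nucleus, where it trims and degrades nuclear RNA and takes part in transcription termination. From the other end, the exosome degrades and trims RNA in the 3′-to-5′ direction. Its core is a ring of subunits without activity of their own in animals (EXOS-4.1, CRN-5 and EXOS-9 among them), topped by a cap of RNA-binding subunits (EXOS-2 and EXOS-3 among them), and its catalytic subunit DIS-3 sits at the base. In *C. elegans* many genes are transcribed together in operons and separated by trans-splicing. In the operon annotation used by the study, *xrn-1*, *xrn-2*, *exos-4.1* and *exos-9* are the second gene of their operon, behind *lem-2*, *rpl-43*, *tin-9.2* and *pfd-5*, and *exos-3* is the first gene, ahead of *ndub-10*.

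Of the 9 genes, *xrn-1* was higher in both libraries labelled *xrn-2(RNAi)*, by a fold of 1.79 between means scaled to the library total. The other 8 genes lay between 0.944 (*exos-3*) and 1.21 (*dis-3*). On that scale the median gene tested was itself at a log2 of 0.17 in replicate 1 and 0.37 in replicate 2. The edgeR test scales otherwise. It put *xrn-1* at a log2 fold change of 0.57 and the other 8 between -0.36 (*exos-4.1*) and 0.00 (*dis-3*). With 2 libraries a condition, 0 of the 9 passed the edgeR test, as did 0% of all genes tested, and *xrn-1* passed in DESeq2, which called 8.07% of all genes higher. No exosome gene passed in either tool.

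The total count was 48451504 and 43324340 in the *xrn-2(RNAi)* libraries, against 41105706 and 41998429 in the mock libraries. All 9 genes had between 770 and 10547 reads in each library and passed the filter on low counts. The libraries were not alike in stage-dependent genes. The summed scaled count of the 6 vitellogenin (yolk) genes was 50865 and 400429 in *xrn-2(RNAi)*, against 3261 and 2418750 in mock, with *vit-5* at 0 reads in mock replicate 1. That of 3 cuticle genes of the hypodermis was 29633 and 14211, against 77038 and 93872, but the individual genes moved in opposite ways between the mock libraries, by a log2 of 11.12 for *col-19* and of -8.09 for *dpy-7* from replicate 1 to replicate 2. The 9 germline markers summed to 104484 and 120589 in *xrn-2(RNAi)*, against 65093 and 117082 in mock. Muscle markers summed to 331974 to 352179 against 334342 to 446611, intestine markers to 3578 to 4029 against 2394 to 4246, neuron markers to 7512 to 8251 against 5426 to 6849, and sperm markers, of which *msp-10* was at 0 in 3 libraries, to 9241 to 10712 against 6737 to 8302. By the staging against a larval time course in the study's methods, both conditions of the first replicate were at a like time of development, whereas those of the second were later and matched less closely. Values are therefore given for each replicate beside the pooled test. The part of stage and tissue composition in the values below was not tested, and in whole animals fewer cells of a type and less RNA per cell cannot be told apart.

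The count of the targeted gene came first. *xrn-2* had 5835 and 5977 reads in the libraries labelled *xrn-2(RNAi)*, against 3993 and 5948 reads in mock. In these unscaled reads mock replicate 1 was the low library and the other 3 were close to each other. Scaled to the mean library total, the counts were 5265 and 6032 in *xrn-2(RNAi)*, against 4247 and 6192 in mock. Mock replicate 1 was still the lowest and mock replicate 2 was the highest, so the groups overlapped. On this scale the log2 fold change was 0.31 within replicate 1 and -0.04 within replicate 2. The difference between the mock libraries, a log2 of 0.54, exceeded both. With trimmed mean (TMM) scaling, described below, the values were 0.14 and -0.41, and the mock libraries differed by 0.65. The edgeR quasi-likelihood test gave a log2 fold change of -0.13 (SE 0.28, Benjamini-Hochberg adjusted p = 0.897). On neither scale were the counts of *xrn-2* thus lower in both replicates. By itself this checks the label in neither direction. Every direction below is that of the libraries labelled *xrn-2(RNAi)*. The partner gene *rpl-43*, which encodes a ribosomal protein of the large subunit, had scaled counts of 23571 and 20153 in *xrn-2(RNAi)* and 22399 and 22296 in mock. Per kilobase of exon, *xrn-2* was at 0.0201 and 0.0270 of *rpl-43* in *xrn-2(RNAi)*, against 0.0171 and 0.0250 in mock. The ratio was higher in *xrn-2(RNAi)* within each replicate, and replicate 2 was above replicate 1 in both conditions by more than the conditions differed.

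*paxt-1* had scaled counts of 2612 and 2529 in *xrn-2(RNAi)*, against 2194 and 2118 in mock. Both *xrn-2(RNAi)* libraries were above both mock libraries on this scale, with a mean of 2571 ± 59.0 against 2156 ± 53.6 (SD, n = 2 each). That ordering depended on the scaling. Total-count scaling placed the median gene at a log2 of 0.17 in replicate 1 and 0.37 in replicate 2, while trimmed mean (TMM) scaling, which corrects for a few abundant genes taking up reads, placed it at 0.01 in both. *paxt-1* was at 0.25 in both replicates with total-count scaling, and at 0.08 and -0.12 with TMM. The edgeR test, which uses TMM, gave -0.02 (SE 0.23, adjusted p = 0.988).

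The largest difference among the 9 genes was that of *xrn-1*. The counts were 10547 and 9227 reads in *xrn-2(RNAi)*, against 4791 and 5230 reads in mock. Scaled to the mean library total these were 9517 and 9311 against 5096 and 5444, and the 2 libraries of each condition were close to each other. The means were 9414 ± 146 in *xrn-2(RNAi)* and 5270 ± 247 in mock (SD, n = 2 each), a fold of 1.79. Within replicates 1 and 2 the log2 fold change was 0.90 and 0.77 with total-count scaling and 0.73 and 0.40 with TMM, and the groups stayed apart on both scales. Values at least as high as the lower of each pair were seen in both replicates for 10.4% of the 16178 genes tested with total-count scaling and for 13% with TMM. In the edgeR test the log2 fold change of *xrn-1* was 0.57 (SE 0.26, adjusted p = 0.500), which did not pass the threshold of 0.05, and 3222 genes had a smaller p. DESeq2, run on the same genes, gave 0.57 with an adjusted p of 0.0415, which passed. The adjusted p was between 0.0415 and 1.00 over the alternatives. A stretch of 27 bases, 0.46% of the exon length of *xrn-1* in the WBcel235 annotation, is shared with the collagen gene *col-87* on the opposite strand, and whether counting used the strand is not given in the sources used here.

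The gene ahead of *xrn-1* in its operon, *lem-2*, which encodes a LEM-domain protein of the inner nuclear membrane, differed more. Its scaled counts were 4209 and 4306 in *xrn-2(RNAi)*, against 1126 and 1191 in mock, a fold of 3.67 between the means of 4257 ± 68.9 and 1159 ± 45.6 (SD, n = 2 each). The log2 fold change was 1.89 and 1.85 with total-count scaling and 1.72 and 1.48 with TMM. Only 2.94% of the genes tested were in both replicates at least as high as the lower of these with total-count scaling, and 3.63% with TMM. The edgeR test gave 1.61 (SE 0.24, adjusted p = 0.254), again short of the threshold, and DESeq2 an adjusted p of 2.12e-13. Per kilobase of exon, *lem-2* was at 1.13 and 1.18 of *xrn-1* in *xrn-2(RNAi)*, against 0.563 and 0.557 in mock. Both genes of this operon were thus higher in both libraries labelled *xrn-2(RNAi)*, with larger values for the first gene than for the second. That difference between the genes was not tested.

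**Figure D1:**
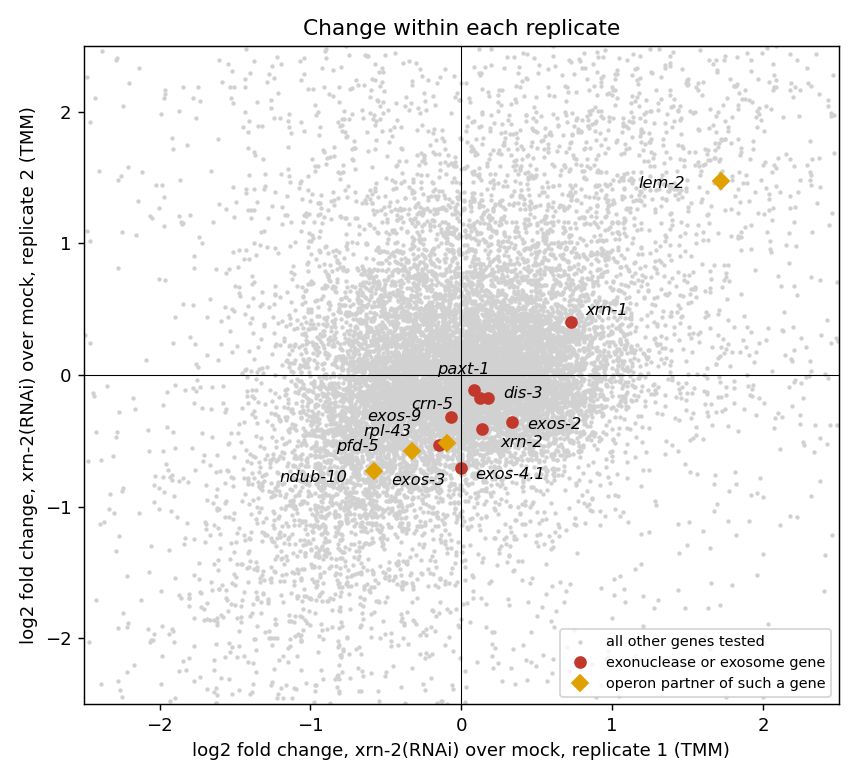
Log2 fold change of *xrn-2(RNAi)* over mock in replicate 1 (horizontal axis) and replicate 2 (vertical axis), scaled by TMM, for the 9 exonuclease and exosome genes (circles), 4 operon partners (diamonds) and the other genes tested (grey, within the range of the axes). *xrn-1* (0.73 and 0.40) and *lem-2* (1.72 and 1.48) lie above 0 in both replicates, and the other named genes lie below 0 in replicate 2.

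None of the 6 exosome genes passed the edgeR test. The 2 cap genes had overlapping or nearly touching groups: *exos-2* had scaled counts of 1337 and 1349 in *xrn-2(RNAi)*, against 938 and 1337 in mock, and *exos-3* had 977 and 1149 against 965 and 1289. For both, mock replicate 1 was below mock replicate 2, by a log2 of 0.51 for *exos-2* and 0.41 for *exos-3*. The edgeR log2 fold changes were -0.01 (SE 0.32, adjusted p = 0.996) for *exos-2* and -0.34 (SE 0.28, adjusted p = 0.717) for *exos-3*. The operon partner of *exos-3*, *ndub-10*, which encodes a subunit of respiratory complex I, had 9809 and 8265 in *xrn-2(RNAi)*, against 13046 and 10589 in mock. It was lower in both libraries on both scales, with an edgeR log2 fold change of -0.66 (SE 0.26, adjusted p = 0.453) and an adjusted p of 0.0027 in DESeq2.

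With total-count scaling the ring gene *exos-9* was the steadiest of the 9. Its scaled counts were 2428 and 2261 in *xrn-2(RNAi)*, against 2267 and 2182 in mock, a range of 0.15 on the log2 scale over the 4 libraries. Just 0.519% of the genes tested had a smaller range. *xrn-1* had the widest range of the 9 genes at 0.90. It was still below the majority, since 41.1% of genes had a smaller one. Ranges were not ranked on the TMM scale. There, the log2 fold change within replicates 1 and 2 was -0.07 and -0.32 for *exos-9*, against 0.08 and -0.12 for *paxt-1*. The edgeR log2 fold change of *exos-9* was -0.20 (SE 0.24, adjusted p = 0.819), and that of its partner *pfd-5*, a prefoldin chaperone subunit with scaled counts of 3428 and 2533 against 3825 and 2928, was -0.45 (SE 0.23, adjusted p = 0.551). *crn-5* had 1063 and 916 in *xrn-2(RNAi)*, against 867 and 802 in mock, and an edgeR log2 fold change of -0.03 (SE 0.30, adjusted p = 0.986). Of its exon length, 8.43% lies opposite the gene *C14A4.6*.

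*exos-4.1* had 2993 and 2152 reads in *xrn-2(RNAi)*, against 2258 and 2640 reads in mock. These cannot be told apart from reads of the gene ahead of it, *tin-9.2*, which encodes a small chaperone of mitochondrial protein import. In the WBcel235 annotation 93.5% of the exon length of *exos-4.1* is shared with *tin-9.2* on the same strand, and *tin-9.2* was listed with 3000 and 2154 reads against 2262 and 2646, which differ by 2 to 7 reads from *exos-4.1* in each library. The scaled counts attributed to *exos-4.1* were 2701 and 2172 in *xrn-2(RNAi)* and 2402 and 2748 in mock, with an edgeR log2 fold change of -0.36 (SE 0.30, adjusted p = 0.719).

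The catalytic subunit gene *dis-3* had 6921 and 6769 reads in *xrn-2(RNAi)*, against 4606 and 5710 reads in mock. Scaled counts were 6245 and 6831 against 4899 and 5944, so the groups lay apart on that scale, with log2 fold changes of 0.35 and 0.20. With TMM these were 0.18 and -0.17, and the edgeR test gave 0.00 (SE 0.25, adjusted p = 0.997).

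Counted over the 9 genes, 0 were called by edgeR in either direction, as were 0% of all genes tested. At an unadjusted p under 0.05 edgeR had 0 of the 9 and 12.5% of all genes. DESeq2 called 1 of the 9 higher (*xrn-1*) and 0 lower, beside 8.07% of all genes higher and 8.9% lower. With total-count scaling, both *xrn-2(RNAi)* libraries were above both mock libraries for 5 of the 9 genes (*xrn-1*, *paxt-1*, *exos-2*, *crn-5* and *dis-3*), beside 35.3% of all genes, and below them for 0, beside 10.3%. TMM scaling left 1 of the 9 above (*xrn-1*), beside 19.7% of all genes, and put 3 below (*exos-3*, *exos-4.1* and *exos-9*), beside 19.9%. The within-replicate fold change was above 0 in both replicates for 6 of the 9 genes with total-count scaling, beside 49.1% of all genes, and for 1 (*xrn-1*) with TMM, beside 30.6%. It was below 0 in both for 0 of the 9 with total-count scaling, beside 16.6%, and for 3 with TMM, beside 29.1%. Of these counts by direction, *xrn-1* was the one gene that stood on the same side under both scalings. Within replicates 1 and 2 the median of the 9 genes was 0.29 and 0.05 with total-count scaling, beside 0.17 and 0.37 for all genes, and 0.12 and -0.32 with TMM, beside 0.01 and 0.01. With TMM, 3 of the 6 exosome genes were above 0 in replicate 1 and 0 of the 6 in replicate 2, beside 8183 and 8242 of the 16178 genes tested.

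**Figure D2:**
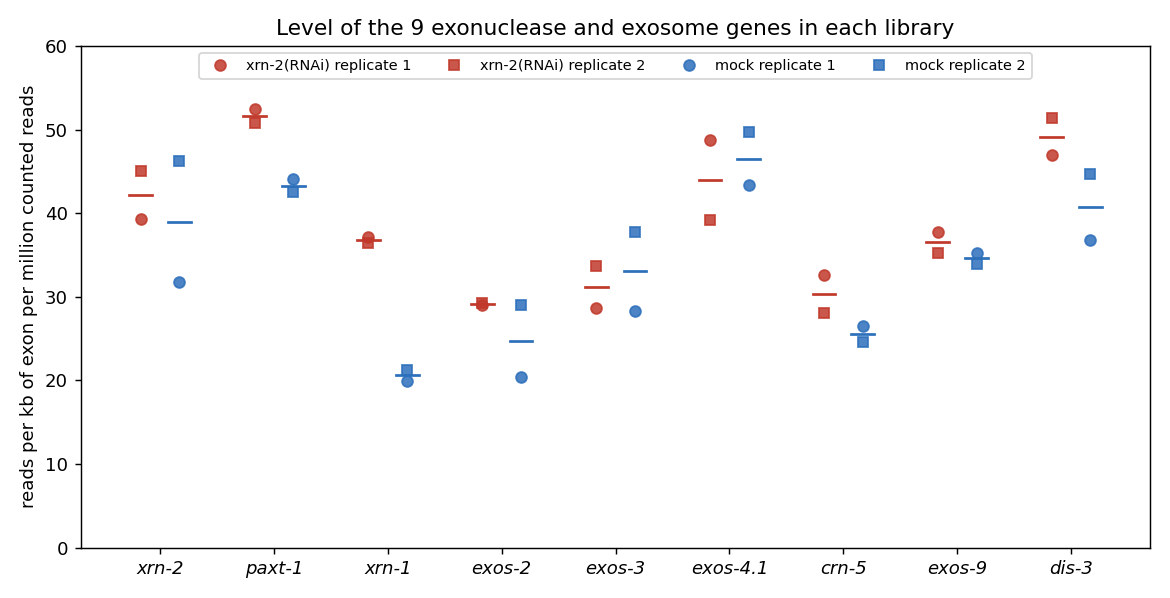
Level of each of the 9 genes, in reads per kilobase of exon per 1e6 counted reads, in the 2 *xrn-2(RNAi)* libraries (red, left of each pair) and the 2 mock libraries (blue, right), with horizontal lines at the means. *xrn-1* is at 37.2 and 36.4 in *xrn-2(RNAi)*, against 19.9 and 21.3 in mock, whereas for *xrn-2*, *exos-3*, *exos-4.1* and *exos-9* the libraries of the conditions overlap.

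Per length of exon, the 9 genes were expressed at similar and fairly high levels. They lay above 77.1% (*exos-2*) to 86.9% (*paxt-1*) of all counted genes with a known exon length. These include the genes with few or no reads that the filter removed. In *xrn-2(RNAi)* the order by mean level was *paxt-1* at 51.6, *dis-3* at 49.1, *exos-4.1* at 44.0 and *xrn-2* at 42.2 reads per kilobase per 1e6 reads, then *xrn-1* at 36.8 and *exos-9* at 36.5, then *exos-3* at 31.2, *crn-5* at 30.3 and *exos-2* at 29.1. The libraries of neighbours in this order lay apart only between *xrn-2* and *xrn-1* and between *exos-9* and *exos-3*. In mock the order was *exos-4.1* at 46.5, *paxt-1* at 43.3, *dis-3* at 40.7, *xrn-2* at 39.0, *exos-9* at 34.6, *exos-3* at 33.0, *crn-5* at 25.5, *exos-2* at 24.7 and *xrn-1* at 20.6. There, neighbours lay apart only between *exos-3* and *crn-5*. *xrn-1* thus ranked 5th of the 9 in *xrn-2(RNAi)* and 9th in mock. The level listed for *exos-4.1* cannot be told apart from that of *tin-9.2*. Its own place in either order, and ranks counted past it, are therefore uncertain. The level of *xrn-1* was 0.946 and 0.808 of that of *xrn-2* in *xrn-2(RNAi)*, against 0.628 and 0.460 in mock. This ratio was higher in replicate 1 than in replicate 2 in each condition, and the conditions lay apart.

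On the total-count scale, each of the 9 genes varied less between the mock libraries than most genes did. The median absolute log2 difference between these libraries was 0.19 over the 9 genes, beside 0.56 over all genes tested. *xrn-2* and *exos-2* had the widest mock differences among the 9, at 0.54 and 0.51, and *paxt-1* and *exos-9* the narrowest, both at -0.05. By contrast the yolk gene *vit-2* differed by 10.78 between the same mock libraries and by 3.72 between the *xrn-2(RNAi)* libraries.

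**Figure D3:**
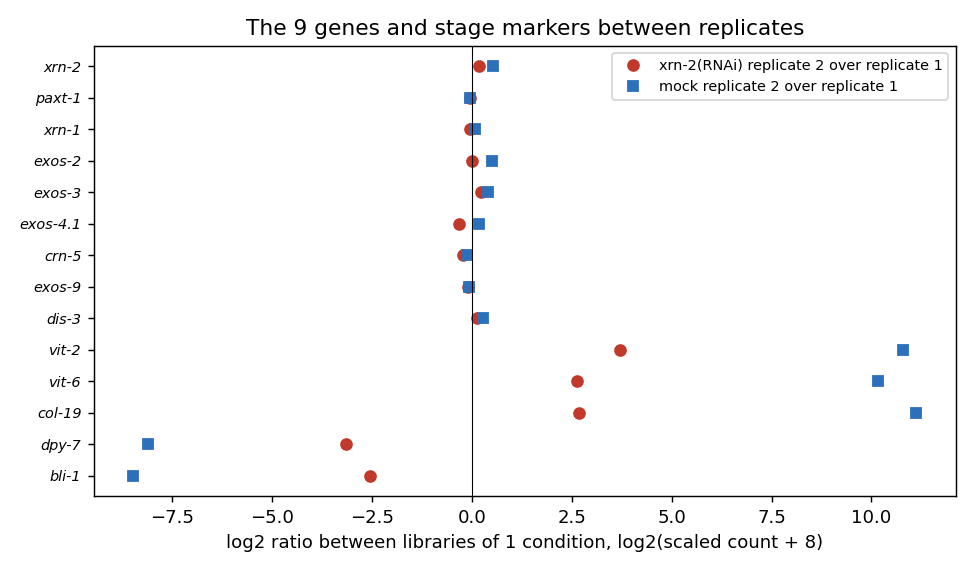
Log2 ratio of replicate 2 over replicate 1 within *xrn-2(RNAi)* (circles) and within mock (squares) for the 9 genes and 5 stage-dependent genes, on the scale of log2(scaled count + 8). The 9 genes lie between -0.31 and 0.54, whereas *col-19* is at 11.12 and *dpy-7* at -8.09 within mock.

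Other RNA decay genes were read from the same fit in 4 lists, of which 47 of 51 listed symbols matched a tested gene. The symbols *exos-5*, *exos-6*, *exos-10* and *ntl-1* did not match. Whether those genes were counted under other symbols was not checked. None of the 47 passed the edgeR test, beside 0% of all genes, and 1 had an unadjusted p under 0.05, beside 12.5%. DESeq2 called 2 of the 47 higher and 0 lower, beside 8.07% and 8.9% of all genes. These shares of the 47 were all at or below those of all genes. Their median edgeR log2 fold change was 0.07, beside 0.05 over all genes tested and -0.03 over the 9 genes.

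The list of other exosome subunits and cofactors (9 genes) had a median of -0.02. With total-count scaling all 9 had both *xrn-2(RNAi)* libraries above both mock libraries, beside 35.3% of all genes. With TMM 2 of the 9 did (*exos-4.2* and *mtr-4*), a share near the 19.7% of all genes. *exos-4.2*, a paralogue of *exos-4.1*, had scaled counts of 1797 and 2916 in *xrn-2(RNAi)*, against 1241 and 1470 in mock (log2 fold change 0.49, SE 0.24, edgeR adjusted p = 0.536). *mtr-4*, which encodes a helicase that feeds RNA to the nuclear exosome, had 7797 and 7389 against 5536 and 5389 (0.20, SE 0.25, adjusted p = 0.819). The core genes *exos-1* and *exos-7* were at -0.02 and -0.05.

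Decapping and other 5′ decay factors (17 genes) had a median of -0.07. The decapping enzyme gene *dcap-2* was at 0.40 (SE 0.23, adjusted p = 0.595) and its activator *dcap-1* at 0.45 (SE 0.28, adjusted p = 0.620), and the Lsm-ring genes *lsm-6* and *lsm-7* at 0.04 and -0.07. *bpnt-1*, which encodes a nucleotidase that removes an inhibitor of XRN enzymes, had scaled counts of 2716 and 2018 in *xrn-2(RNAi)*, against 3307 and 1710 in mock. Replicate 1 was above replicate 2 in each condition, and the edgeR log2 fold change was -0.29 (SE 0.24, adjusted p = 0.717). The genes *cgh-1* and *car-1* were chosen after their values were seen, for the largest standard errors of this list. *cgh-1*, a DEAD-box helicase gene, had 54091 and 103643 against 19569 and 97594, and *car-1*, which encodes its RNA-binding partner, had 29759 and 43175 against 10523 and 40882. Both were low in mock replicate 1, the library in which the sum of the germline markers was also lowest. The marker *glh-1* alone was instead lowest in *xrn-2(RNAi)* replicate 2. A link of these genes to the germline markers was not tested.

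Deadenylases (12 genes), which shorten the poly(A) tail, had a median of 0.08. *ntl-9*, a subunit gene of the CCR4-NOT complex, had 3418 and 4283 in *xrn-2(RNAi)*, against 1976 and 2438 in mock, with a log2 fold change of 0.53 (SE 0.23) that did not pass in edgeR (adjusted p = 0.480) and passed in DESeq2 (0.0312). *panl-2*, of the PAN2-PAN3 deadenylase, was at 0.43 (SE 0.26, adjusted p = 0.619), the CCR4-NOT scaffold gene *let-711* at 0.07 and *ntl-11* at -0.04. Factors of nonsense-mediated decay (9 genes), which degrades mRNA with premature stop codons, had a median of 0.12. Among them *smg-8*, a regulator of the SMG-1 kinase, was the 1 gene of the 47 with an unadjusted edgeR p under 0.05 (0.0469). It had 2213 and 3061 in *xrn-2(RNAi)*, against 1175 and 1517 in mock, with a log2 fold change of 0.69 (SE 0.23) and an adjusted p of 0.392 in edgeR and 0.00268 in DESeq2. *smg-7* was at 0.26, *smg-2* at 0.02 and *smg-5* at -0.00.

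**Figure D4:**
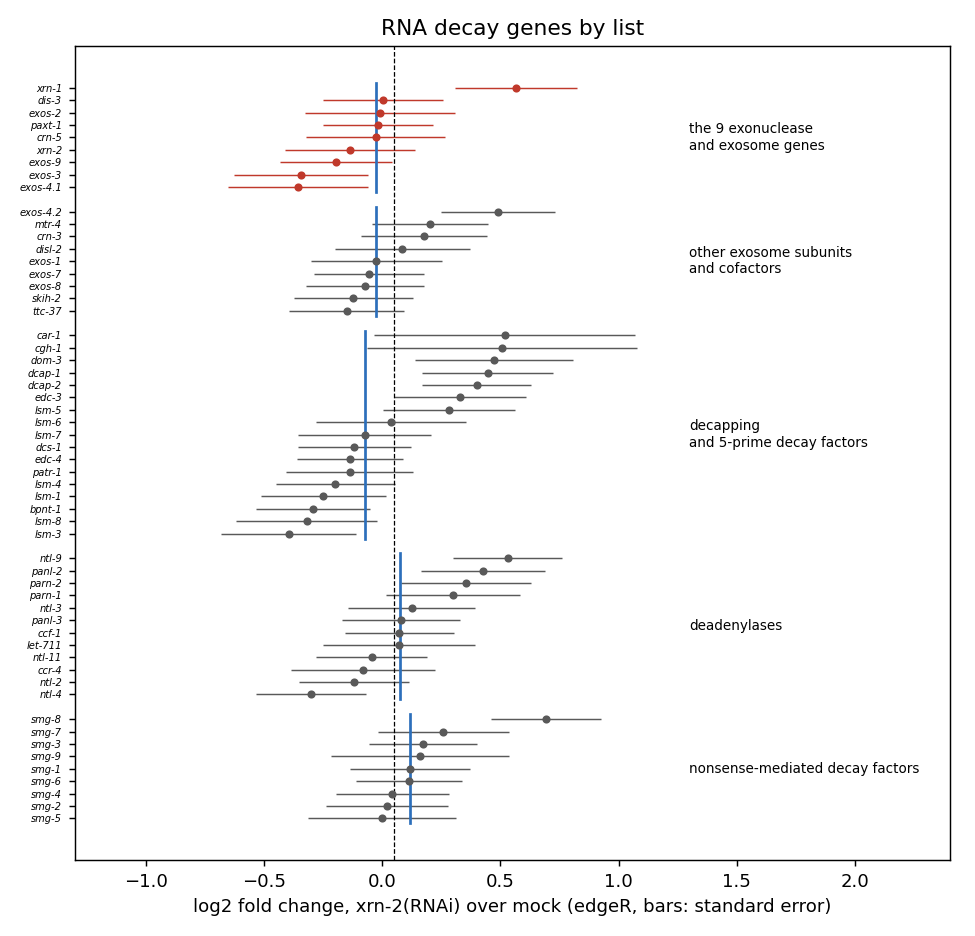
Log2 fold change of *xrn-2(RNAi)* over mock with its standard error (edgeR, TMM) for the 9 exonuclease and exosome genes (red) and the 47 genes of 4 other decay lists (grey). Blue lines mark the median of each list (-0.03, -0.02, -0.07, 0.08 and 0.12 from top to bottom) and the dashed line the median of all genes tested, 0.05; no gene shown passed the edgeR test.

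The profiles of *xrn-2* and *xrn-1* over the 4 libraries were each shared by many genes. By Euclidean distance of the centred log2 scaled counts, among the 13967 genes whose scaled counts averaged 50 or more, the nearest to *xrn-2* were *ears-1* (0.0089), which encodes a glutamyl-tRNA synthetase, *B0041.5* (0.039) and *T28B8.3* (0.0427), and 384 genes lay within a distance of 0.25. The nearest to *xrn-1* were *T01E8.8* (0.0302), *cec-4* (0.0634), which encodes a chromodomain protein of the nuclear periphery, and *let-858* (0.0684), which encodes a splicing factor, with 127 genes within 0.25. With 4 libraries such likeness is a description only.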

How the data were processed

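Poly(A) RNA libraries were prepared with the TruSeq kit. The authors aligned the reads to ce10 with QuasR and deposited the number of reads overlapping the exons of each WormBase WS220 gene as whole-number counts without normalization, for 20380 genes, 1046 of them without reads. Samples were grouped by title. The genes and lists were chosen with earlier results of these data known. Symbols (19179 identifiers matched), exon overlaps and union exon lengths came from the WBcel235 annotation of Ensembl release 115. As this is another build than ce10, no coordinates are given.

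The test was edgeR 4.0.16 under R 4.3.3 (TMM, filterByExpr, glmQLFit and glmQLFTest, 16178 genes, Benjamini-Hochberg adjustment, two-sided), and a block term for the replicate was included, since the study compares libraries within a replicate. Standard errors were derived from the F statistic. DESeq2 1.42.0 was the alternative tool, and scaling, the filter, the block and each library were varied. Within-replicate fold changes are of log2(scaled count + 8), with counts scaled to the mean total of 43719995. No label says that replicates were separate cultures, so p-values measure only the spread between these samples, which may be technical. With 2 libraries against 2, an exact permutation test cannot go below p = 0.333, and none was made. On simulated counts with 200 genes changed by a log2 of 2, edgeR recovered 100% at a dispersion of 0.02 and 7.5% at 0.21, near the common dispersion of 0.2098 (6 and 0 false calls).

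Named were the 9 genes, their operon partners, *bpnt-1*, the genes past the threshold or with the 2 smallest and 2 largest p of each decay list, and the 3 genes nearest in profile to *xrn-1* and *xrn-2*. *cgh-1* and *car-1* fall outside this rule and were not among the genes refitted under the alternatives. Marker lists of 7 tissues or stages were summed per library.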

Additional observations from a re-analysis of the deposited data

How the results depend on the processing

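The edgeR fit called 0 of 16178 genes (2020 at an unadjusted p under 0.05), 0 of the 9 genes and 0 of the 47 other decay genes, and so did total-count and median-of-ratios scaling, no filter on low counts and no replicate block (1644 at an unadjusted p under 0.05). Leaving out any 1 library, fitted without the block, also gave 0 called genes each time (502 to 3027 at an unadjusted p under 0.05). DESeq2 called 2746 genes, 1 of the 9 genes (*xrn-1*, 0.57) and 2 of the 47 (*ntl-9*, 0.53, and *smg-8*, 0.69), as well as *lem-2* (1.61) and *ndub-10* (-0.65). The cause of this difference between the tools was not tested. Same-numbered libraries deviated together (r = 0.57 across genes), but 2 pairs with no stated shared batch do not establish pairing. Without the replicate block *dis-3* was at -0.0083, and no other direction of the 9 genes turned. In the nonsense-mediated decay list *smg-2* turned, to -0.010.

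Of 279 alternative values of 31 named genes, 37 changed sign and 5 passed the threshold only under the alternative. With total-count scaling the sign turned for *xrn-2* (0.14), *paxt-1* (0.25), *exos-2* (0.26), *exos-9* (0.076), *crn-5* (0.24), *exos-7* (0.22), *exos-1* (0.25), *lsm-7* (0.20), *ntl-11* (0.23) and *smg-5* (0.27), as the median gene moved up on that scale. *dis-3* was at -0.0054 without the filter, and *smg-5* at 0.0014 with median-of-ratios scaling and 0.0013 with DESeq2. Leaving out 1 library moved *xrn-1* between 0.46 and 0.66 and *lem-2* between 1.51 and 1.69, both without a change of sign. It spanned 0 for *xrn-2* (-0.47 to 0.18), *paxt-1* (-0.12 to 0.029), *exos-2* (-0.32 to 0.29), *crn-5* (-0.22 to 0.10), *dis-3* (-0.19 to 0.19), *exos-1* (-0.16 to 0.056), *lsm-6* (-0.18 to 0.24), *lsm-7* (-0.25 to 0.062), *let-711* (-0.38 to 0.58), *ntl-11* (-0.20 to 0.10), *smg-2* (-0.30 to 0.33), *smg-5* (-0.17 to 0.15) and *bpnt-1* (-0.70 to 0.15). Among the 9 genes the sign turned without mock replicate 2 for *xrn-2* (0.18), *paxt-1* (0.0043) and *exos-2* (0.29), without *xrn-2(RNAi)* replicate 2 for *paxt-1* (0.029), *crn-5* (0.10) and *dis-3* (-0.053), without *xrn-2(RNAi)* replicate 1 for *dis-3* (-0.028), and without mock replicate 1 for *dis-3* (-0.19). *exos-3* (-0.61 to -0.09), *exos-4.1* (-0.61 to -0.19) and *exos-9* (-0.33 to -0.12) kept their sign. The within-replicate median of the 9 genes in replicate 2 was -0.32 with TMM and -0.35 with median-of-ratios scaling, against 0.05 with total counts, and that of all genes was 0.011 and 0.014 with TMM in replicates 1 and 2 and -0.016 with median-of-ratios scaling in replicate 2. Without *exos-4.1*, an alternative chosen after seeing the data, the median was 0.30 and 0.12 in replicates 1 and 2.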
